A study of Bos grunniens and Bos grunniens x Bos taurus with 6 samples.

Results

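Genes of thiol redox control, glutathione use and superoxide defence were examined in longissimus dorsi, a long back muscle. Cattle-yak, labelled Bos grunniens x Bos taurus, were the hybrid group with 3 libraries. Yak, labelled Bos grunniens, a parental species of the hybrid, were the other group with 3 libraries. No cattle libraries were included. The labels name no treatment, genetic modification, age, sex, generation or direction of the cross. Whether each sample is a different animal is not stated, so the p-values here reflect how far these samples differ within a group, and part of that may be technical. Members were chosen by symbol: the peroxiredoxins PRDX1 to PRDX6, superoxide dismutases, catalase (CAT), thioredoxins and glutaredoxins, the glutathione transferase families, methionine sulfoxide reductases, haem oxygenases, NQO1, the glutathione synthesis genes, and the regulators NFE2L1, NFE2L2 and KEAP1. The file held 47 such symbols. They stood on 44 gene identifiers of 31044 in all, since 3 symbols shared an identifier with another member (GSTA2 with GSTA1, GSTM4 with GSTM1, GSTM5 with GSTM3). Where a symbol stood on several identifiers, the one with most reads was taken. Of the 44, 41 had the minimum of 30 reads pooled over the 6 libraries and were tested among 10397 genes. The other 3 were GSR with 15 pooled reads, GSS with 18 and GSTP2 with 2; SOD3 and GCLC were not analysed here.

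Respiring muscle fibres leak superoxide from their mitochondria. Superoxide dismutases turn superoxide into hydrogen peroxide, which catalase and peroxiredoxins remove; peroxiredoxins are then recharged by thioredoxin or, for PRDX6, by glutathione. Glutathione transferases couple glutathione to reactive compounds, glutaredoxins remove glutathione from protein thiols, and methionine sulfoxide reductases repair oxidised methionine in proteins. Many of these genes are textbook targets of the transcription factor NRF2, encoded by NFE2L2 and held down by KEAP1.

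Long reads of whole amplified cDNA were counted per transcript. The 3 cattle-yak libraries held 2382936, 2366057 and 2769106 counted reads and the 3 yak libraries 2350851, 2502603 and 2412511. The members took 0.532%, 0.510% and 0.481% of the counts in cattle-yak libraries, against 0.545%, 0.579% and 0.555% in yak libraries. Levels below are CPM, counts scaled to a fixed library total, after scaling by the trimmed mean of M values (TMM), which are not divided by length and are therefore compared between groups and not between genes. The first principal component held 46.6% of the variance of gene levels and separated the groups. Markers of skeletal muscle fibre were abundant in every library (9 of 10 listed genes found, summed level 203830 to 227093 CPM in cattle-yak and 262042 to 296334 CPM in yak). For some members only part of the identifier's reads came from transcripts carrying the symbol, the rest carrying none: 14.7% for GSTP1, 18.6% for GLRX, 22.6% for GLRX2, 38.0% for NFE2L1 and 48.3% for SOD2.

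Of the 41 members, 1 rose and 7 fell in cattle-yak at an edgeR quasi-likelihood adjusted p under 0.05. The gene that rose was MSRA, a methionine sulfoxide reductase; those that fell were the peroxiredoxins PRDX3, PRDX5 and PRDX6, the glutathione transferases GSTM1, GSTP1 and GSTO1, and the quinone reductase NQO1. The share called was 19.5% of members, beside 10% of all genes tested. Lower calls made up 17.1% of members against 5.08% of all genes, and higher calls 2.44% of members against 4.92% of all genes. With a minimum of 100 pooled reads, 7 of 39 members were called, 1 higher and 6 lower. At that minimum 791 of 5651 genes were called, 405 higher and 386 lower. The part of read depth in the gap between members and all genes was not tested. The median log2 fold change of cattle-yak over yak was -0.30 over the members and 0.04 over all genes tested. In 12 members (29.3%) every cattle-yak library was below every yak library, beside 14.6% of all genes, and in 3 members (MSRA, HMOX1 and GSTK1, 7.32%) every cattle-yak library was above, beside 15.2% of all genes and 29.9% of all genes in either direction. An unadjusted p under 0.05 was reached by 15 of the 41 members, beside at least 2550 of all 10397 genes tested. Members and their roles were chosen with earlier results of these data known. The shares called here and below therefore describe the members and do not test for an excess. With library size as the only scaling, the median over all genes moved up by 0.19 to 0.23, and 763 genes rose while 310 fell, in place of 512 and 528 with TMM; 2 members then rose (MSRA and TXNIP) and 5 fell.

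**Figure D1:**
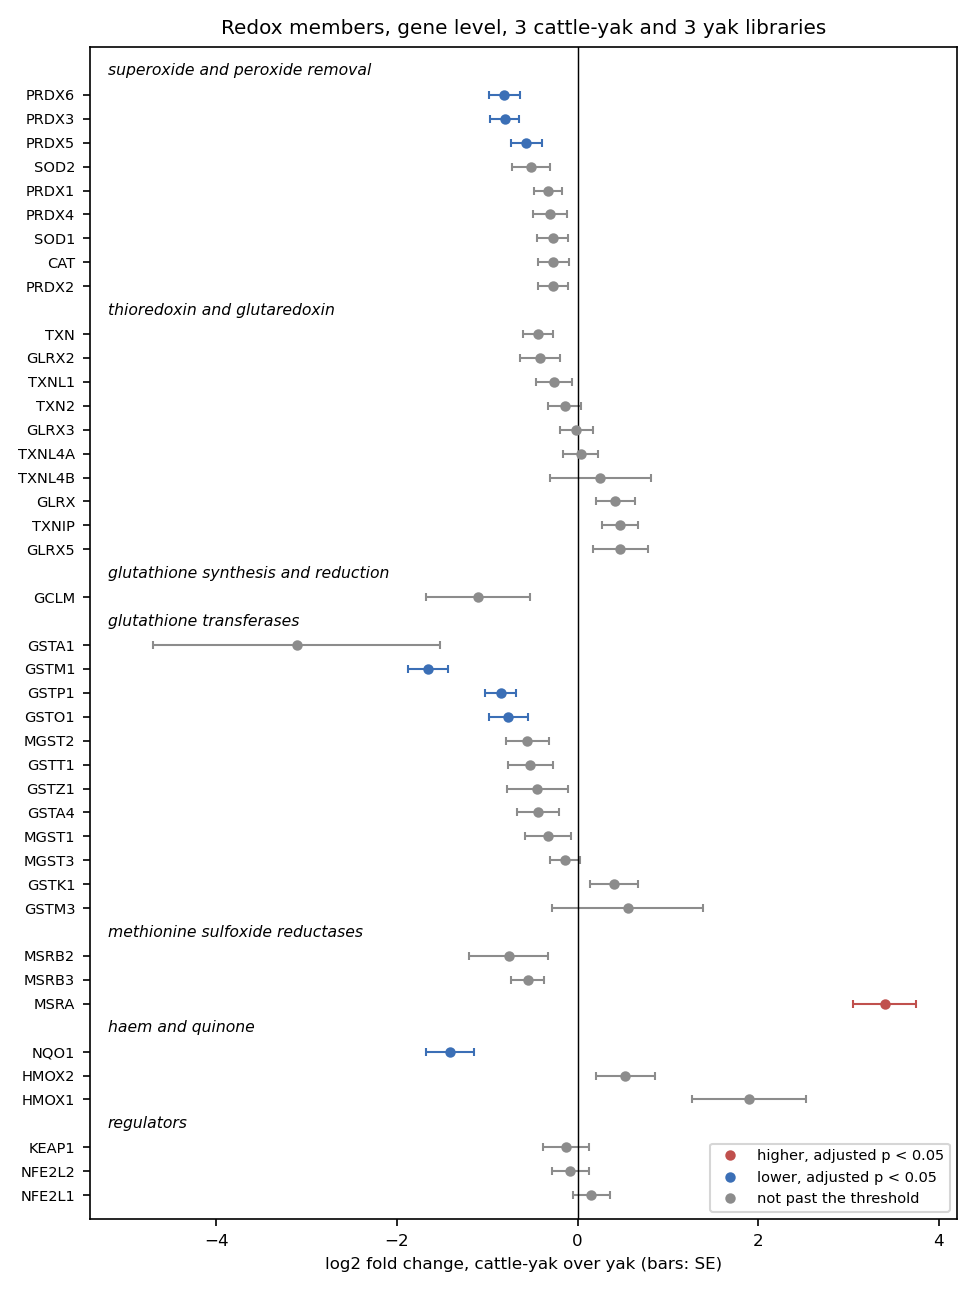
Log2 fold change of cattle-yak over yak for the 41 members tested, in 7 groups by role, with SE bars from the edgeR fit of 3 against 3 libraries. Red marks the gene that rose, blue the 7 that fell and grey the 33 not past an adjusted p of 0.05. Left of 0 lie 30 of the 41 points, against 25 with library size as the only scaling. The median over all genes tested was 0.04.

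Of the 9 genes that remove superoxide and peroxide, 3 fell and none rose, beside 5.08% of all genes called lower and 4.92% called higher. All 9 log2 fold changes were negative, between -0.27 and -0.81, and were negative with each scaling tried, but with reference transcripts only CAT was at 2.12 (adjusted p = 0.0936) and PRDX2 at 0.34 (adjusted p = 0.416). PRDX3, the mitochondrial peroxiredoxin, had 146, 160 and 164 CPM in cattle-yak libraries, against 292, 295 and 238 CPM in yak libraries. The groups were far apart, and the highest cattle-yak library was below the lowest yak library. PRDX3 averaged 157 ± 9.46 CPM in cattle-yak and 275 ± 31.8 CPM in yak (SD, n = 3 each; log2 fold change -0.81 ± 0.17, SE; adjusted p = 0.00586). In bulk muscle, fewer cells of a type and less RNA per cell cannot be told apart. Other sources of a lower level were not tested.

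PRDX6, the peroxiredoxin that uses glutathione and also acts on oxidised phospholipids, had 170, 169 and 159 CPM in cattle-yak libraries, against 240, 335 and 298 CPM in yak libraries. The cattle-yak libraries were close to each other and all below the yak libraries, which spread more widely. The log2 fold change was -0.81 ± 0.17 (adjusted p = 0.00696). PRDX5, a peroxiredoxin of mitochondria, peroxisomes and cytosol, had 125, 132 and 151 CPM in cattle-yak libraries, against 180, 230 and 194 CPM in yak libraries. The groups did not overlap, with a log2 fold change of -0.57 ± 0.17 (adjusted p = 0.0453). This call was lost when any 1 of the 6 libraries was left out (adjusted p 0.0558 to 0.177, log2 fold change -0.46 to -0.64) and with DESeq2 (0.0623), whereas those of PRDX3 and PRDX6 were kept in every fit without 1 library. With assembled transcripts only, PRDX3 was at -0.49 (adjusted p = 0.146) and PRDX6 at -0.47 (adjusted p = 0.137), so neither passed.

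The other 6 genes of this group did not pass the test. PRDX1, a cytosolic peroxiredoxin, had 363, 371 and 381 CPM in cattle-yak libraries, against 479, 448 and 475 CPM in yak libraries. Both groups were tight and did not overlap, but the log2 fold change was small, -0.33 ± 0.15 (adjusted p = 0.193). PRDX2, the other main cytosolic peroxiredoxin, had 608, 540 and 580 CPM in cattle-yak libraries, against 584, 716 and 779 CPM in yak libraries. Yak 1 lay within the cattle-yak range, and the 95% interval of the log2 fold change ran from -0.62 to 0.09 (adjusted p = 0.347).

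SOD1, the copper and zinc superoxide dismutase of the cytosol, had 395, 436 and 370 CPM in cattle-yak libraries, against 568, 412 and 474 CPM in yak libraries. The ranges overlapped and the interval of the log2 fold change was -0.64 to 0.09 (adjusted p = 0.345). SOD2, the manganese superoxide dismutase of mitochondria, had 229, 370 and 213 CPM in cattle-yak libraries, against 346, 370 and 449 CPM in yak libraries. Cattle-yak 2 was level with yak 2, while the other cattle-yak libraries were below all yak libraries. Over all 6 libraries the log2 fold change was -0.52 ± 0.21 (adjusted p = 0.133); without cattle-yak 2 it was -0.79 with an adjusted p of 0.0154, and over all fits without 1 library the adjusted p ran from 0.0154 to 0.38. CAT, which breaks hydrogen peroxide down in peroxisomes, averaged 176 ± 21.9 CPM in cattle-yak and 212 ± 28.6 CPM in yak (SD, n = 3 each; adjusted p = 0.366). PRDX4, the peroxiredoxin of the endoplasmic reticulum, averaged 48.2 ± 7.19 CPM in cattle-yak and 59.6 ± 3.27 CPM in yak (adjusted p = 0.343).

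None of the 10 thioredoxin and glutaredoxin genes passed the edgeR test, beside 10% of all genes called. An unadjusted p under 0.05 was reached by 2, beside at least 2550 of all 10397 genes tested. DESeq2 and limma-voom called none of the 10. Their log2 fold changes ran from -0.44 to 0.47 with a median of 0.01. TXN, the cytosolic thioredoxin, averaged 78.4 ± 2.62 CPM in cattle-yak and 106 ± 9.95 CPM in yak, without overlap (log2 fold change -0.44 ± 0.17, adjusted p = 0.119). TXN2, the mitochondrial thioredoxin, averaged 101 ± 17.0 CPM in cattle-yak and 112 ± 14.7 CPM in yak (adjusted p = 0.673).

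TXNIP, which binds and inhibits thioredoxin and limits glucose uptake, had 466, 371 and 401 CPM in cattle-yak libraries, against 223, 394 and 278 CPM in yak libraries. Yak 2 lay among the cattle-yak libraries and the other yak libraries below them (log2 fold change 0.47 ± 0.20, adjusted p = 0.156). TXNIP passed the threshold with assembled transcripts only (0.89, adjusted p = 0.0177), in the fit without yak 2 (0.73, adjusted p = 0.0481) and with library size as the only scaling (0.67, adjusted p = 0.0379), while over all fits without 1 library its adjusted p reached 0.449. The glutaredoxins GLRX, GLRX2, GLRX3 and GLRX5 had log2 fold changes of 0.42, -0.41, -0.01 and 0.47, with adjusted p from 0.252 to 0.976. GLRX5, needed for mitochondrial iron-sulfur clusters, had 87, 78 and 177 reads in cattle-yak libraries, against 48, 72 and 87 reads in yak libraries, so that cattle-yak 3 stood above the rest. TXNL1, a thioredoxin-like protein bound to the proteasome, and the spliceosome proteins TXNL4A and TXNL4B had adjusted p of 0.451, 0.939 and 0.825; the log2 fold change of TXNL1 was -0.26, against 0.78 (adjusted p = 0.0801) with reference transcripts only.

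Glutathione synthesis was represented by GCLM alone, the modifier subunit of glutamate-cysteine ligase. It had 7, 3 and 4 reads in cattle-yak libraries, against 5, 8 and 13 reads in yak libraries. With so few reads the interval of its log2 fold change was wide, -2.33 to 0.12 (adjusted p = 0.249).

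Among the 12 glutathione transferases tested, 3 fell and none rose, beside the 5.08% of all genes called lower. GSTP1, the pi class transferase, had 377, 278 and 332 CPM in cattle-yak libraries, against 574, 646 and 560 CPM in yak libraries. All cattle-yak libraries lay well below all yak libraries (log2 fold change -0.85 ± 0.17, adjusted p = 0.00506). With only the transcripts that carry the symbol, which hold 14.7% of the reads, the change was -0.65 with an adjusted p of 0.0588. GSTO1, the omega class transferase, had 37.9, 36.9 and 55.5 CPM in cattle-yak libraries, against 64.6, 88.8 and 68.8 CPM in yak libraries. The groups did not overlap, and cattle-yak 3 came closest to the yak libraries (log2 fold change -0.77 ± 0.21, adjusted p = 0.0318). The GSTO1 call was lost without cattle-yak 1 (adjusted p = 0.0915), cattle-yak 2 (0.102), yak 2 (0.141) or yak 3 (0.0736), and with library size as the only scaling (0.0755).

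GSTM1, a mu class transferase, was counted mainly under the identifier ENSBGRG00000001968, with 62.1, 42.3 and 53.3 CPM in cattle-yak libraries, against 173, 209 and 116 CPM in yak libraries. Every cattle-yak library was below every yak library, and yak 3 was the lowest of its group. The log2 fold change was -1.66 ± 0.23 (adjusted p = 0.000359). The symbol GSTM1 also stood on a second identifier, ENSBGRG00000002079, which is not a member because it held fewer reads. It moved the other way: 84.8, 53.1 and 72.2 CPM in cattle-yak libraries, against 16.9, 14.0 and 15.5 CPM in yak libraries (log2 fold change 2.18 ± 0.23, adjusted p = 3.73e-05). The second identifier held 57.7%, 55.6% and 57.5% of the reads of both in cattle-yak libraries, against 8.92%, 6.29% and 11.8% in yak libraries. Its share thus averaged 57.0% ± 1.14 in cattle-yak and 8.99% ± 2.74 in yak (SD, n = 3 each).

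Summed over both identifiers, GSTM1-named reads came to 123 ± 25.9 CPM in cattle-yak and 181 ± 46.1 CPM in yak, and the ranges overlapped. With all transcripts of the symbol added up in 1 gene, the log2 fold change was -0.57 and no longer passed the test (adjusted p = 0.112). Mu class genes are alike in sequence and may share reads, so the level of each identifier is uncertain. Whether these 2 identifiers share reads was not tested, and the file gives no position for either. Both identifiers kept their direction and their call in every fit without 1 library (-1.45 to -1.86 for the member and 2.04 to 2.36 for the second).

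**Figure D2:**
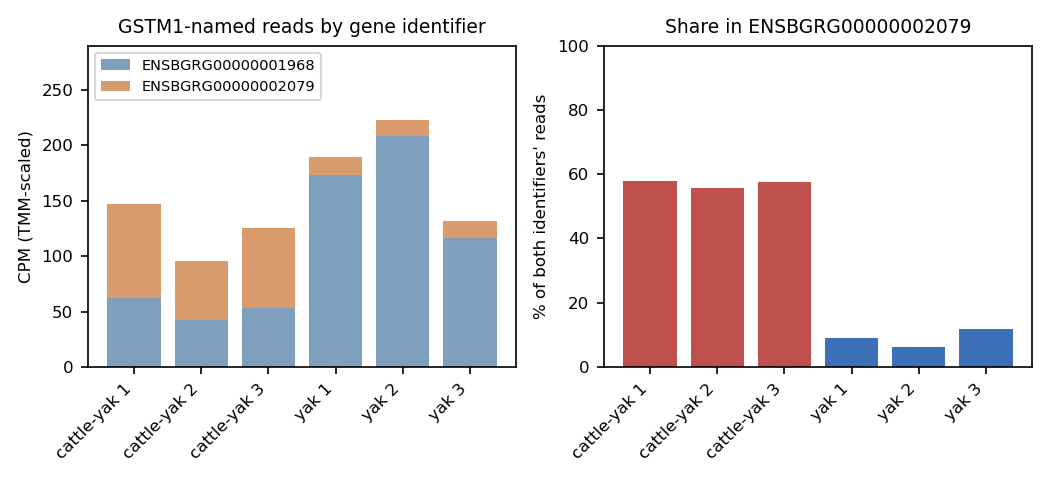
Left, stacked bars give the level (TMM-scaled CPM) of the 2 gene identifiers that carry the symbol GSTM1 in each of the 6 libraries; right, bars give the percentage of their reads under ENSBGRG00000002079. The second identifier holds 55.6% to 57.7% of the reads in cattle-yak libraries and 6.29% to 11.8% in yak libraries, while the sums of the groups overlap.

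The other 9 transferases had log2 fold changes from -3.11 to 0.55 and adjusted p from 0.151 to 0.745. MGST3, a membrane-bound transferase and peroxidase, had 447, 417 and 449 CPM in cattle-yak libraries, against 386, 539 and 522 CPM in yak libraries. The ranges overlapped, with yak 1 below all cattle-yak libraries and yak 2 and yak 3 above them, and the interval of the log2 fold change was -0.50 to 0.22. MGST2, another membrane-bound transferase, had 63, 66 and 117 reads in cattle-yak libraries, against 113, 108 and 85 reads in yak libraries (adjusted p = 0.151); without cattle-yak 3 its log2 fold change was -0.83 (adjusted p = 0.043). GSTT1 (theta class), GSTA4 (alpha class), GSTZ1 (zeta class) and MGST1 had negative log2 fold changes of -0.52, -0.44, -0.44 and -0.33, and GSTK1, the mitochondrial kappa class enzyme, had 0.40 (adjusted p 0.207 to 0.45).

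The remaining pair, GSTA1 and GSTM3, rested on 1 library each and was singled out after the values were seen. GSTA1, an alpha class enzyme, had 6, 6 and 2 reads in cattle-yak libraries, against 1, 96 and 10 reads in yak libraries. Nearly all of the difference was yak 2, and without it the gene had too few reads to be tested. GSTM3, another mu class enzyme, had 20.3, 16.5 and 94.0 CPM in cattle-yak libraries, against 15.1, 42.0 and 32.3 CPM in yak libraries. Cattle-yak 3 stood far above the rest; without it the log2 fold change was -0.66 (adjusted p = 0.306) in place of 0.55 (adjusted p = 0.745).

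MSRA, which reduces the S form of methionine sulfoxide, had 41.8, 32.3 and 39.9 CPM in cattle-yak libraries, against 2.67, 6.12 and 1.82 CPM in yak libraries. These are 107, 84 and 110 reads in cattle-yak libraries, against 6, 14 and 4 reads in yak libraries. Every cattle-yak library was several times above every yak library. The level was 10.5-fold higher in cattle-yak (log2 fold change 3.40 ± 0.35, 95% interval 2.66 to 4.13, adjusted p = 2.56e-05), which ranked the gene 67 of 10397 by upward change. Leaving out 1 library gave 3.10 to 4.05, and the call held in every alternative that could be fitted; with reference transcripts only the gene had too few reads to be tested.

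Of the reductases of the R form, MSRB2 and MSRB3 were members, and neither passed the test. MSRB3, of the endoplasmic reticulum and mitochondria, averaged 165 ± 27.6 CPM in cattle-yak and 242 ± 38.4 CPM in yak (SD, n = 3 each). All its yak libraries were above all its cattle-yak libraries, with a log2 fold change of -0.55 ± 0.18 that did not pass the test (adjusted p = 0.0687; 0.0491 with assembled transcripts only, at -0.61). MSRB2, of mitochondria, had 21, 12 and 14 reads in cattle-yak libraries, against 33, 9 and 26 reads in yak libraries, so the groups overlapped (adjusted p = 0.305). The intervals of MSRA (2.66 to 4.13) and of MSRB3 (-0.94 to -0.16) lay on opposite sides of 0; the difference between the genes was not tested.

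NQO1, which reduces quinones by transferring electron pairs, had 25.4, 11.2 and 20.7 CPM in cattle-yak libraries, against 50.3, 43.3 and 59.2 CPM in yak libraries. All cattle-yak libraries were below all yak libraries (log2 fold change -1.41 ± 0.27, adjusted p = 0.0037). The call was kept in every fit without 1 library, but with assembled transcripts only the log2 fold change was -0.69 and did not pass (adjusted p = 0.291).

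HMOX1, the inducible haem oxygenase, had 56, 243 and 82 reads in cattle-yak libraries, against 32, 22 and 33 reads in yak libraries. Scaled, these are 21.9, 93.5 and 29.8 CPM in cattle-yak libraries, against a mean of 13.0 ± 2.92 CPM in yak (SD, n = 3). Every cattle-yak library was above every yak library, and cattle-yak 2 was several times above the other cattle-yak libraries. The log2 fold change was 1.90 ± 0.63 with an adjusted p of 0.128, and without cattle-yak 2 it was 1.02 with an adjusted p of 0.0445. DESeq2 called the gene (adjusted p = 0.000967), and over the alternatives that keep all libraries the adjusted p ran from 9.53e-08 to 0.207. Macrophages are a known source of HMOX1. All 10 macrophage markers listed were found, 2 of 8 tested rose (CD163 and CTSS), and their summed level was 48.8, 115 and 114 CPM in cattle-yak libraries, against 29.4, 23.2 and 54.7 CPM in yak libraries. Beside these sums of 115 and 114 CPM, cattle-yak 2 and cattle-yak 3 had 93.5 and 29.8 CPM of HMOX1. The part of macrophages in the HMOX1 result was not tested. HMOX2, the constitutive haem oxygenase, averaged 14.2 ± 3.18 CPM in cattle-yak and 9.86 ± 3.56 CPM in yak (adjusted p = 0.348).

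**Figure D3:**
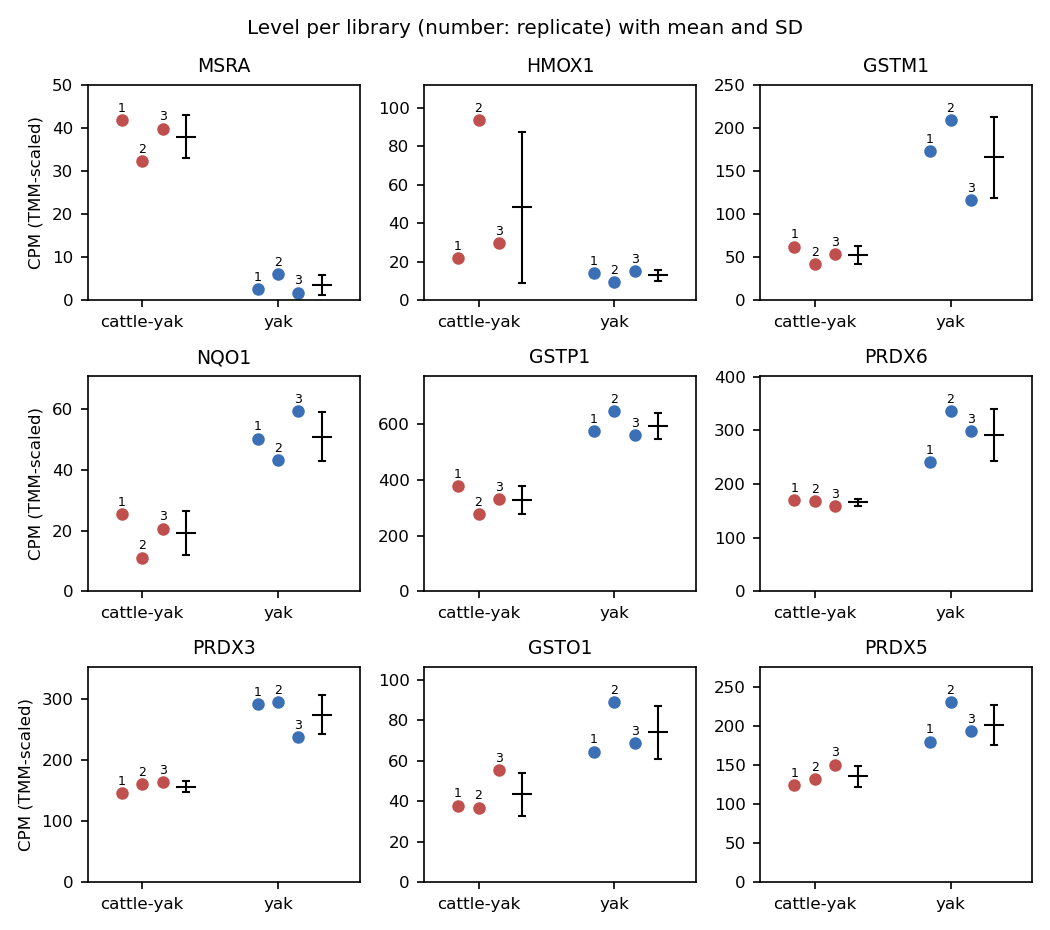
Level (TMM-scaled CPM) of the 8 members called and of HMOX1 in each library, numbered by replicate, with mean and SD at the right of each group. MSRA is high in all 3 cattle-yak libraries (32.3 to 41.8 CPM) and low in all 3 yak libraries (1.82 to 6.12 CPM), HMOX1 is above yak in all 3 cattle-yak libraries and highest in cattle-yak 2 (93.5 CPM), and the other 7 genes are lower in every cattle-yak library than in any yak library.

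The 3 regulators did not pass the edgeR test, beside 10% of all genes called. None had an unadjusted p under 0.05, and DESeq2 and limma-voom called none. NFE2L2, encoding NRF2, averaged 32.7 ± 4.69 CPM in cattle-yak and 34.6 ± 2.37 CPM in yak, with an interval of the log2 fold change from -0.52 to 0.35 (adjusted p = 0.846). KEAP1, its repressor, averaged 43.4 ± 15.8 CPM in cattle-yak and 47.5 ± 7.32 CPM in yak (interval -0.67 to 0.41, adjusted p = 0.796). NFE2L1, a related factor that also controls proteasome genes, averaged 126 ± 29.4 CPM in cattle-yak and 113 ± 18.5 CPM in yak (interval -0.28 to 0.58, adjusted p = 0.683). A transcript level says nothing of the amount of NRF2 protein, which is set largely by its breakdown.

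Other cell types of muscle were followed by marker lists. The summed fibroblast level was 249 to 442 CPM in cattle-yak libraries and 477 to 593 CPM in yak libraries, with all 8 markers found and 3 of 7 tested lower (COL1A2, COL3A1 and LUM); DCN, the marker with most reads, did not pass, at 225 ± 66.8 CPM in cattle-yak and 222 ± 38.7 CPM in yak (SD, n = 3 each). The adipocyte sum was 88.1 to 142 CPM in cattle-yak libraries and 142 to 191 CPM in yak libraries, mostly from LPL, which did not pass the test. The only adipocyte marker called was PLIN4, which rose (31, 46 and 56 reads in cattle-yak libraries, against 11, 21 and 9 reads in yak libraries), while the defining markers ADIPOQ, PLIN1 and LEP had no reads under a matched name. The erythroid sum was 0.770 to 2.34 CPM in cattle-yak libraries and 4.10 to 26.7 CPM in yak libraries, from 3 of 8 markers found. It rests on few reads. HBB had 1, 1 and 1 reads in cattle-yak libraries, against 20, 22 and 1 reads in yak libraries. HBA had 5, 1 and 0 reads in cattle-yak libraries, against 20, 36 and 5 in yak libraries. AHSP overlapped between the groups, with 0, 0 and 5 reads in cattle-yak libraries and 4, 3 and 3 in yak libraries. The Schwann cell sum was 214 to 308 CPM in cattle-yak libraries and 107 to 138 CPM in yak libraries (5 of 6 found), with PMP22 higher. Endothelial (8 of 8 found) and smooth muscle (7 of 8 found) sums overlapped between the groups, at 45.7 to 87.4 and 134 to 181 CPM in cattle-yak libraries, against 39.8 to 60.5 and 145 to 177 CPM in yak libraries; VWF was the only one of their markers called, and it rose. Fibre markers did not all go one way either: of 9 tested, 3 fell (ACTA1, MB and MYH2) and TTN rose (log2 fold change 0.59), and the fibre sum was mostly ACTA1 and MYLPF, with 1.57% of the ACTA1 reads on transcripts carrying that symbol. After TMM scaling, the summed levels of the fibre, fibroblast, adipocyte and erythroid lists were lower in every cattle-yak library than in any yak library. The 7 members that fell were lower in the same way, although single markers in the fibre and adipocyte lists rose. The adipocyte ranges nearly met, at 141.5 CPM in cattle-yak 3 and 142.5 CPM in yak 1. With library size as the only scaling, the fibroblast and adipocyte ranges overlap. The part of these cells in the fall of the 7 members was not tested.

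The members held 976 transcripts, 46 of them with a reference identifier and the rest assembled from the reads. In 39 genes, 197 transcripts had 30 or more pooled reads, of which 7 rose (3.55%) and 18 fell (9.14%) in cattle-yak, beside 6.52% and 6.27% of all 27036 transcripts tested. The 14 called transcripts in genes that were themselves called all moved in the direction of the gene, as they share its reads. In GSTM1, 4 of 8 transcripts tested fell, among them TALONT000926435 with 39, 28 and 58 reads in cattle-yak libraries, against 117, 124 and 95 reads in yak libraries (log2 fold change -1.63 ± 0.26). Most reads of the GSTP1 identifier were on the reference transcript ENSBGRT00000025278, which fell. It had 786, 601 and 799 reads in cattle-yak libraries, against 1102, 1276 and 1058 reads in yak libraries (-0.85 ± 0.17, adjusted p = 0.00339). This transcript is not among those carrying the symbol, which hold 14.7% of the identifier's reads. No other of the 7 transcripts tested was called. With assembled transcripts only, the identifier was at -0.69 and did not pass (adjusted p = 0.0522). That fit and the one on symbol-carrying transcripts both draw on the reads outside ENSBGRT00000025278, so they are not separate support.

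MSRA rose in all 3 of its tested transcripts, all of them assembled from the reads. TALONT001483596, whose description names a Bos taurus protein, had 36, 35 and 52 reads in cattle-yak libraries, against 1, 8 and 2 reads in yak libraries. TALONT001483807, whose description names a Bos mutus (wild yak) protein, had 36, 28 and 32 reads in cattle-yak libraries, against 2, 4 and 0 reads in yak libraries. Log2 fold changes were 3.24 ± 0.49 and 3.73 ± 0.54, with adjusted p of 0.00033 and 0.00023. All 9 MSRA transcripts with any read together held 301 reads in cattle-yak and 24 reads in yak.

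All 3 transcripts tested under the second GSTM1 identifier rose as well. TALONT000926076 had 130, 68 and 115 reads in cattle-yak libraries, against 32, 20 and 31 reads in yak libraries (1.70 ± 0.30, adjusted p = 0.00108). TALONT000926078 had 46, 38 and 45 reads in cattle-yak libraries, against 0, 4 and 0 reads in yak libraries. Its reads were thus nearly all in cattle-yak libraries, where the 3 libraries were alike (adjusted p = 0.000122).

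In 6 genes that were not called as a whole, 11 transcripts were called. TXNIP had 3 transcripts that rose of 10 tested, led by TALONT000829942 with 58, 46 and 53 reads in cattle-yak libraries, against 14, 10 and 18 reads in yak libraries (1.69 ± 0.32, adjusted p = 0.00216). TXNL1 had 4 that fell of 14 tested, led by TALONT000528958 with 63, 29 and 44 reads in cattle-yak libraries, against 75, 85 and 96 reads in yak libraries (-1.11 ± 0.28, adjusted p = 0.014). A transcript fell in each of PRDX2 (-1.27 ± 0.34), MSRB3 (-1.01 ± 0.31) and TXN2 (-1.79 ± 0.56), and 1 rose in TXNL4A (1.84 ± 0.56), with adjusted p from 0.0202 to 0.0465. Of the 25 called transcripts, 13 lost the call in at least 1 fit without 1 library.

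The mix of transcripts within a gene was tested in 36 members with diffSpliceDGE, and 2 passed (CAT and TXNL1), beside 1.6% of all 6392 genes tested. In CAT, the main transcript TALONT000096989 held 71.8%, 48.4% and 52.5% of the gene's reads in cattle-yak libraries, against 73.2%, 75.8% and 76.2% in yak libraries. The reference transcript ENSBGRT00000036351 held 3.50%, 19.2% and 20.5% in cattle-yak libraries, against 2.98%, 3.84% and 2.38% in yak libraries. The shift was seen in cattle-yak 2 and cattle-yak 3, whereas cattle-yak 1 had the yak mix. The adjusted p was 0.00715; it became 1.07e-05 without cattle-yak 1, and missed the threshold without cattle-yak 2 (0.116), cattle-yak 3 (0.108), yak 1 (0.0806) or yak 3 (0.146).

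TXNL1 had relatively more of the reference transcript ENSBGRT00000019513 in cattle-yak, and less of the assembled TALONT000528958. TALONT000528958 held 12.8%, 10.1% and 11.2% of the reads in cattle-yak libraries, against 19.0%, 22.9% and 22.4% in yak libraries. ENSBGRT00000019513, with 104, 54 and 91 reads in cattle-yak libraries, against 59, 37 and 48 reads in yak libraries, held 21.0% ± 2.18 in cattle-yak and 12.05% ± 2.61 in yak (SD, n = 3 each). Neither share overlapped between the groups, but the gene's adjusted p was 0.0454 and missed the threshold without cattle-yak 3 (0.292), yak 1 (0.124), yak 2 (0.26) or yak 3 (0.417). TXNL1 also missed it with the Simes method (0.53) and with a minimum share of 10% (0.0686). In PRDX6, picked after its values were seen, cattle-yak 2 had 30.4% of its reads in ENSBGRT00000040487, against 1.15% and 0.91% in the other cattle-yak libraries and 2.59%, 1.04% and 2.14% in yak libraries. That mix belonged to 1 library, and the PRDX6 usage test did not pass (adjusted p = 0.363).

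**Figure D4:**
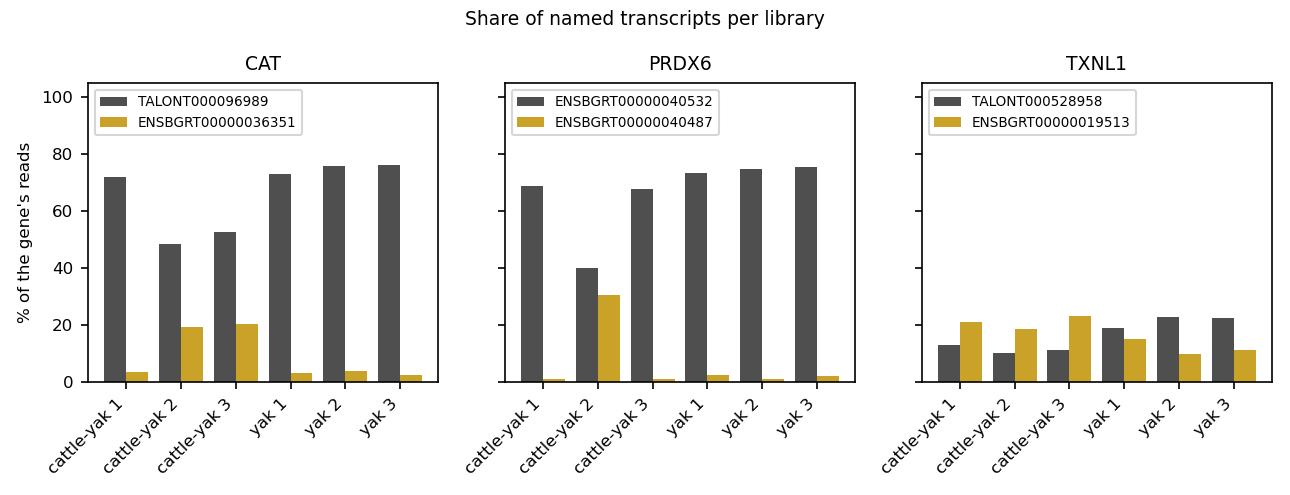
Percentage of the gene's reads held by 2 transcripts each of CAT, PRDX6 and TXNL1 in the 6 libraries. In CAT, cattle-yak 2 and 3 have 19.2% and 20.5% in ENSBGRT00000036351 against 2.38% to 3.84% in yak libraries; in PRDX6, cattle-yak 2 alone has 30.4% in ENSBGRT00000040487; in TXNL1 both shares differ in all 3 cattle-yak libraries.

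Neighbouring genes of the pathway were read from 7 lists of 110 genes, of which 62 were tested, 8 rose, 8 fell and 46 did not pass, beside 4.92% of all genes called higher and 5.08% called lower. The lists were chosen with earlier results of these data known, so these counts do not test for an excess. Of the 6 glutathione peroxidase and thioredoxin reductase genes tested, 2 rose. GPX3, the secreted glutathione peroxidase, averaged 24.2 ± 9.61 CPM in cattle-yak and 3.56 ± 0.820 CPM in yak (SD, n = 3 each; 2.75 ± 0.38, adjusted p = 0.00037). MSRB1, the selenium-containing reductase of the R form, averaged 1086 ± 471 CPM in cattle-yak and 388 ± 36.3 CPM in yak (1.48 ± 0.26, adjusted p = 0.00436), but with reference transcripts alone its log2 fold change was -0.60 (adjusted p = 0.0338), so its direction depends on which transcripts are counted.

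Of 11 genes of NADPH supply, which feeds both the thioredoxin and glutathione systems, only MTHFD1 of folate metabolism was called, at 21.2 ± 6.48 CPM in cattle-yak and 59.6 ± 9.94 CPM in yak (-1.49 ± 0.24, adjusted p = 0.00111). Of 8 genes of glutathione turnover and cysteine supply, 1 fell, ESD, which frees glutathione from S-formylglutathione (-0.67 ± 0.17, adjusted p = 0.0197). None of 11 thioredoxin-fold proteins passed the edgeR test, beside 10% of all genes called. Of the 11, 1 had an unadjusted p under 0.05, and DESeq2 and limma-voom called none. Of 6 partners and repressors of NRF2, 2 fell. MAFG, a small MAF partner of NRF2, averaged 5.31 ± 0.262 CPM in cattle-yak and 12.6 ± 0.738 CPM in yak (-1.24 ± 0.31, adjusted p = 0.0197). SKP1, of the ubiquitin ligase complex, had a log2 fold change of -0.86 ± 0.16 (adjusted p = 0.00314), against 0.64 (adjusted p = 0.527) with reference transcripts alone.

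Among 15 genes of metal handling and other defence, 4 rose and 3 fell. The mitochondrial uncoupling proteins UCP3 and UCP2 averaged 803 ± 162 and 40.9 ± 3.84 CPM in cattle-yak, against 70.1 ± 26.3 and 14.4 ± 2.21 CPM in yak (adjusted p = 9.4e-06 and 0.000667), and UCP3 had the larger log2 fold change of the pair, 3.52 ± 0.27. SESN1, a stress-induced sestrin, averaged 58.5 ± 2.75 CPM in cattle-yak and 12.5 ± 2.85 CPM in yak (2.22 ± 0.22, adjusted p = 2.54e-05). AIFM2, which reduces coenzyme Q at membranes, averaged 4.69 ± 1.05 CPM in cattle-yak and 11.3 ± 0.916 CPM in yak (adjusted p = 0.0263). The remaining 3, named after their values were seen, were the metallothionein MT2A, which rose (adjusted p = 0.0433), and OXR1 and the biliverdin reductase BLVRB, which fell (0.0274 and 0.0426).

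Of 5 genes that produce oxidants, 2 rose and 1 fell. AOX1, aldehyde oxidase, averaged 27.4 ± 8.40 CPM in cattle-yak and 4.02 ± 1.19 CPM in yak (2.75 ± 0.35, adjusted p = 0.000169). XDH, xanthine dehydrogenase, averaged 19.6 ± 3.21 CPM in cattle-yak and 7.88 ± 0.766 CPM in yak (1.31 ± 0.29, adjusted p = 0.00881). MAOB, the mitochondrial monoamine oxidase B, averaged 7.55 ± 2.57 CPM in cattle-yak and 40.1 ± 14.0 CPM in yak (-2.40 ± 0.33, adjusted p = 0.000405). Of the 16 pathway genes called, AIFM2, BLVRB, ESD, MAFG, MT2A and OXR1 lost the call in at least 1 fit without 1 library, with adjusted p up to 0.0867, 0.154, 0.0769, 0.0699, 0.139 and 0.094.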

How the data were processed

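Total RNA of longissimus dorsi was made into amplified cDNA libraries for nanopore sequencing, per the labels' protocols; fastp, minimap2 and GSNAP stand in the submitters' processing notes, and no source used here gives the counting software or genome build. The authors deposited read counts per transcript (179856 transcripts, 6986 with a reference identifier and 172870 assembled) and CPM; the deposited CPM equalled counts over the library total within 0.005. Lines of overflowing text without values (132) and reads without a gene identifier (at most 0.00249% of a library) were left out.

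Counts were summed by gene identifier. Members, roles and lists were chosen with earlier results of these data known. Genes and transcripts with 30 or more pooled reads went into edgeR's (4.0.16, under R 4.3.3) quasi-likelihood test (TMM, robust dispersion; Benjamini-Hochberg over all features, threshold 0.05), and usage into diffSpliceDGE, over transcripts with 5% or more of the counts of their gene. The SE of a log2 fold change is its size over the square root of F; intervals use the fit's degrees of freedom. Scripts were tested on simulated data. Full values are given for called members, the 8 members with most reads, and members without overlap at 1.5-fold or more; pathway genes are named up to 4 per list. Alternatives were DESeq2 1.42.0, limma-voom (limma 3.58.1), other scalings, filters and transcript sets, leaving out each library, and a replicate block. Python 3.11.15, pandas 2.3.3 and matplotlib 3.10.9 drew up tables and figures. Libraries of a group differed beyond sampling noise (chi-square over its degrees of freedom 5.69 to 9.26), and each was counted as 1 sample; this does not show whether they came from separate animals. Reads are PCR products without molecular identifiers.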

Additional observations from a re-analysis of the deposited data

How the results depend on the processing

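Of the member genes, 8 were called in the reported fit, 6 to 8 in the fits without 1 library (6 without yak 3) and 6 to 8 in the other scalings, tools and filters, with 3 exceptions: 11 with no filter on low counts, 5 with reference transcripts only and 5 with assembled transcripts only. Over all genes tested, 1040 were called, against 188 with reference transcripts only and 539 to 998 without 1 library (655 without yak 1, 622 without yak 2, 539 without yak 3); DESeq2 called 766 and limma-voom 762. Member transcripts called numbered 25, against 16 with DESeq2 and 15 to 23 without 1 library (15 without cattle-yak 2, 16 without yak 1, 16 without yak 3). Members with changed usage numbered 2, against 0 with a minimum share of 10%, 5 with none, 1 with the Simes method and 0 to 2 without 1 library (0 without cattle-yak 3, yak 1 or yak 3; 1 without cattle-yak 2 or yak 2). The cause of these differences was not tested, except that transcript subsets and fits without 1 library hold fewer reads. With assembled transcripts only, PRDX3, PRDX6, NQO1, GSTO1 and GSTP1 lost the call (log2 fold change -0.49, -0.47, -0.69, -0.57 and -0.69; adjusted p 0.146, 0.137, 0.291, 0.134 and 0.0522), and TXNIP and MSRB3 gained it. With reference transcripts only, MSRB1 had a log2 fold change of -0.60 (adjusted p = 0.0338) and SKP1 of 0.64 (adjusted p = 0.527), the reverse of the reported fit. Among members that were not called, the same setting turned the sign of CAT (2.12), TXNL1 (0.78), GSTZ1 (0.36), PRDX2 (0.34), GLRX3 (0.21), MGST3 (0.15), GSTA4 (0.13) and TXNL4A (-0.01), with adjusted p from 0.0801 to 0.993, and assembled transcripts only that of GSTM3 (-0.04) and NFE2L2 (0.11). Other scalings, filters, transcript sets or fits without 1 library also turned the sign of KEAP1, NFE2L1, TXN2 and TXNL4B, none of them past the threshold. Of the 8 called members and the second GSTM1 identifier, none changed direction in 156 values, 131 kept the call, and 7 of the 9 lost it somewhere, GSTO1 and PRDX5 in fits without 1 library. Depth limits GCLM, MSRB2, GSTA1 and TXNL4B, each with few reads per library.

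The groups share replicate numbers, but deviations of same-numbered libraries did not go together (correlations -0.0408 to 0.0124), so the numbers were not taken as pairs. A replicate block gave 7 member genes (PRDX5 lost, adjusted p = 0.0677), 1010 of all genes, 22 member transcripts and 1 member with changed usage (TXNL1 lost, adjusted p = 0.0508).

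A further pair of alternatives was chosen after seeing the data: usage with edgeR's own filter on low counts called 3 members, and the transcript test at 100 or more pooled reads called 18.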
